A study of Homo sapiens with 15 samples.

Results

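The clustered protocadherins were followed across RNA sequencing libraries of 5 groups of HEK293T cells, a line derived from human embryonic kidney. All protein-coding genes of GENCODE v29 on chromosome 5 with a symbol that begins with PCDHA, PCDHB or PCDHG were taken, matched by Ensembl identifier, which gave 53 members among 58735 genes in the tables. They fall into 3 clusters on the forward strand of GRCh38: 15 alpha genes at chr5:140786136-141012347, 16 beta genes at chr5:141051135-141249365 and 22 gamma genes at chr5:141330571-141512981. Non-target was a HEK293T clone that received a lentiviral CRISPR vector with a guide without a target. The other 4 groups were clones in which the same vector had been directed at the gene in their name: C9orf89-CKO first, then MAGI2-CKO, then MLPH-CKO, and last RHBDD2-CKO. Values given in a row follow this order of groups. Every clone came from limiting dilution, so all groups share the vector and a passage through 1 cell. RNA was taken from 3 wells of each clone, grown alone and without drug, which gave 15 libraries. The wells are separate cultures of 1 clone, so the p-values measure the spread between wells, and the effect of a guide and the state of the clone that was picked cannot be told apart. In bulk RNA, fewer cells that express a gene and less RNA per cell cannot be told apart either.

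Clustered protocadherins are cell-surface adhesion proteins known mainly from neurons, where the same isoform on facing membranes binds to itself and the mixture of isoforms marks a cell. Each variable exon of the alpha and gamma clusters has a promoter of its own and is spliced to constant exons shared by its cluster, while the beta genes are single-exon genes. Most isoforms are chosen at random in a cell and kept through division, a choice tied to CTCF and cohesin, which bring a promoter to a distant enhancer, and to DNA methylation, which keeps unused promoters silent. The C-type isoforms PCDHAC1, PCDHAC2, PCDHGC3, PCDHGC4 and PCDHGC5 lie at the ends of the alpha and gamma clusters and are regulated apart from the others.

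The promoters of 7 members are shown because these members carry the results that follow. Each line holds 100 bases that end before the start of the gene, read 5′ to 3′ from RefSeq (GRCh38.p14), with every match of GNCGCT in the window from 120 to 20 bases before the RefSeq start in capitals. The letters GNCGCT, with N for any base, are the common part of a short element known from most, but not all, promoters of these clusters. They were chosen with these promoters in view, and a match in a given promoter, that of PCDHGC4 included, need not be this element.
PCDHGB5: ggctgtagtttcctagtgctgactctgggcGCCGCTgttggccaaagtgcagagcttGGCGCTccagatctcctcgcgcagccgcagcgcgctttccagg
PCDHGA1: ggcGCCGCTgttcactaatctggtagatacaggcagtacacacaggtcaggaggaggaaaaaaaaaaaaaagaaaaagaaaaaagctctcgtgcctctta
PCDHGA11: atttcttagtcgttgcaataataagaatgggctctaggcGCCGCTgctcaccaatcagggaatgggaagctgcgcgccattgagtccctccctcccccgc
PCDHGC3: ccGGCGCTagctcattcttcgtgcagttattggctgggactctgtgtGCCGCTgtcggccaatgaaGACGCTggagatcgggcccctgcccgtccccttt
PCDHGC4: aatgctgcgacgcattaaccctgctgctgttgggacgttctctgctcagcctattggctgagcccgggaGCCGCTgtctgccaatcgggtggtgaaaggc
PCDHB2: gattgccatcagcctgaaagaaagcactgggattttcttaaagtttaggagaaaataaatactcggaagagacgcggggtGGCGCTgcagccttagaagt
PCDHA10: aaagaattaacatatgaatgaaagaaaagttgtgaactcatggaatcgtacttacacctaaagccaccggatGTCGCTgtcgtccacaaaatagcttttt
The 7 stretches lie at chr5:141397847-141397946, chr5:141330414-141330513, chr5:141420947-141421046, chr5:141475847-141475946, chr5:141484897-141484996, chr5:141094478-141094577 and chr5:140855783-140855882, all on the forward strand. A RefSeq promoter was matched by symbol for 47 of the 53 members. On the strand of the gene, the window held GNCGCT in 41 of these 47 promoters (87.2%) and in 11.1% of all 35116 RefSeq promoters. Over all 250 bases before the start and on both strands, the shares were 91.5% and 37.5%. PCDHB2, PCDHGB5 and PCDHA10, which had very different levels in these clones, all carried it, and a match of these letters is a description of the sequence, not of a bound factor.

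The targeted genes were looked at first. RHBDD2 had 27.4 to 38.1 FPKM in Non-target (FPKM, fragments per kilobase of exon, relative to 1000000 fragments after the authors' scaling of the libraries) and 11.2 to 13.5 FPKM in RHBDD2-CKO, and it was also low in MAGI2-CKO, at 11.7 to 16.0 FPKM. CARD19, the present symbol of C9orf89, had 5.70 to 7.71 FPKM in Non-target and 4.27 to 4.34 FPKM in C9orf89-CKO. It was also lower in RHBDD2-CKO. With single wells left out, its log2 change against Non-target was -0.675 to -0.460 in C9orf89-CKO and -0.530 to -0.315 in RHBDD2-CKO. MAGI2 stood between 0.0523 and 0.123 FPKM in all 15 libraries, and MLPH had 0 fragments in all of them, so RNA cannot check the MAGI2-CKO and MLPH-CKO labels. Edited transcripts need not be lost, so a level that stayed would not go against a label. Of 12 markers of HEK293T fixed for the check, 11 had at least 0.5 FPKM in Non-target, led by VIM, an intermediate filament gene, at 45.2 ± 4.51 FPKM (SD, n = 3), and PAX8 was near 0 throughout. Of 10 myeloid markers none reached 0.5 FPKM in any group, with PTPRC and MPO at or near 0, and of 10 mesenchymal markers 1 to 3 did, led by COL1A1, with FAP at 0 and COL1A2 near 0.

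The libraries held 15517856 to 19489918 fragments assigned to genes. Within a group, the wells numbered 1 stood apart: the chi-square per gene was 14.6 to 24.8 between well 1 and another well and 2.40 to 6.54 between wells 2 and 3. Most members were low. Of the 53 members, 7 had no fragment in any library (PCDHA4, PCDHA5, PCDHA6, PCDHA8, PCDHAC2, PCDHB1 and PCDHB4), 15, these included, had fewer than 10 fragments over all libraries, and 5 passed the filter of the test, at least 0.5 FPKM in 3 libraries. These were PCDHGC3, PCDHGC4, PCDHGA11, PCDHGB5 and PCDHB2. PCDHB2, the lowest of them, had 1.05 FPKM in the third highest of its libraries, and PCDHGA7, just outside, had 0.445 FPKM. PCDHB2 and PCDHGB5 reached the filter through RHBDD2-CKO alone, so their presence among the tested genes already implies a difference. The same holds for PCDHGC4, which reached it through the 4 CKO clones and in no well of Non-target. An FPKM value of a gamma gene spreads its fragments over exons that other genes of the cluster also use: a median of 56.1% of the exon bases of a gamma gene belong to no other gene, against 50.6% in the alpha cluster and 94.9% in the beta cluster. How fragments in shared exons were assigned was not given in the sources used here.

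**Figure D1:**
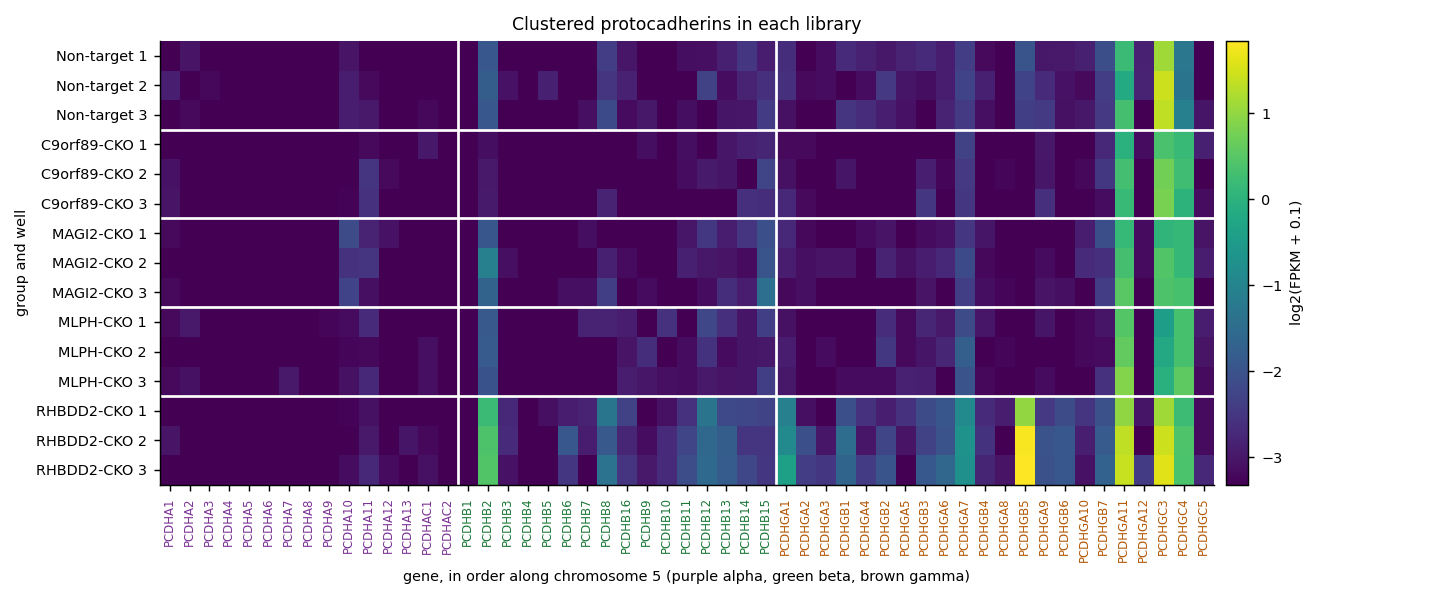
Level of the 53 members (columns, in order along chromosome 5, symbol colours give the cluster) in the 15 libraries (rows, 3 wells per group), as log2(FPKM + 0.1). Most of the map is near its floor, PCDHGA11, PCDHGC3 and PCDHGC4 are seen in every group, and the RHBDD2-CKO wells show PCDHGB5, PCDHB2 and a series of further beta and gamma genes.

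PCDHGC3 and PCDHGC4, neighbouring C-type genes at the end of the gamma cluster, went opposite ways in 3 of the 4 clones. PCDHGC4 was at 0.313, 0.299 and 0.378 FPKM in wells 1, 2 and 3 of Non-target. C9orf89-CKO had 1.02, 1.11 and 0.917 FPKM, MAGI2-CKO 0.984, 0.985 and 1.17 FPKM, MLPH-CKO 1.17, 1.17 and 1.37 FPKM and in RHBDD2-CKO it was at 1.06, 1.25 and 1.21 FPKM. All 12 wells of the CKO clones lay above all 3 Non-target wells. The mean was 3.08, 3.18, 3.75 and 3.56 times that of Non-target in the same order, and PCDHGC4 rose in all 4 clones by limma with Benjamini-Hochberg adjustment (adjusted p = 1.02e-05, 4.64e-06, 2.03e-06 and 2.56e-06). These 4 comparisons share the Non-target wells. PCDHGC4 reached the filter through the 4 CKO clones and not through Non-target, so the p-values of these rises are a description. The fit without the filter on low values also called it higher in all 4 clones. None of the 6 comparisons between CKO clones passed for PCDHGC4, with adjusted p from 0.226 to 0.868 by limma.

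PCDHGC3 was the most abundant member in Non-target, at 2.06, 2.64 and 2.44 FPKM. RHBDD2-CKO had 2.06, 2.64 and 2.94 FPKM, C9orf89-CKO 1.18, 1.58 and 1.65 FPKM, MAGI2-CKO 0.948, 1.26 and 1.22 FPKM, and MLPH-CKO 0.645, 0.772 and 0.874 FPKM. The wells of RHBDD2-CKO overlapped those of Non-target, and all wells of the other 3 clones lay below both. PCDHGC3 fell by 0.67 on the log2(FPKM + 0.1) scale in C9orf89-CKO (SE 0.17, limma adjusted p = 0.0123), by 1.00 in MAGI2-CKO (adjusted p = 5.93e-04) and by 1.53 in MLPH-CKO (adjusted p = 3.22e-05), while the change in RHBDD2-CKO was 0.08 (adjusted p = 0.744). In the order of levels, the wells of MAGI2-CKO and C9orf89-CKO overlapped and the difference missed the threshold (limma adjusted p = 0.193), but it passed without the filter on low values when wells 1 were left out of every group. The difference also passed with a replicate block, in which wells are matched by number. MLPH-CKO was below MAGI2-CKO with an adjusted p of 0.0471, which passed 0.05 in only some of the other settings. Leaving out well 2 of Non-target or well 1 of C9orf89-CKO took the fall in C9orf89-CKO past 0.05, to an adjusted p of at most 0.0534. PCDHGC5, the last of the C-type gamma genes, had 2, 4, 5, 6 and 6 fragments over the 3 wells of the 5 groups in the order above.

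PCDHGA11, a stochastically chosen type of the gamma A subfamily, was on in every group. Its levels were 1.05, 0.789 and 1.15 FPKM in Non-target and 0.885, 1.13 and 1.02 FPKM in C9orf89-CKO. MAGI2-CKO had 1.01, 1.15 and 1.34 FPKM, MLPH-CKO 1.27, 1.42 and 1.74 FPKM and RHBDD2-CKO 1.88, 2.44 and 2.56 FPKM. The RHBDD2-CKO wells were above all 12 others, the MLPH-CKO wells were above those of Non-target and C9orf89-CKO, and the wells of MAGI2-CKO overlapped those of these 3 groups. PCDHGA11 rose in RHBDD2-CKO by 1.13 (SE 0.17, limma adjusted p = 2.99e-04) and in MLPH-CKO by 0.53 (adjusted p = 0.0331) on the log2(FPKM + 0.1) scale. The rise in MLPH-CKO was lost without the filter on low values, with quantile normalization, with only the 6 libraries of both groups, and when well 1 or 2 of Non-target or well 2 or 3 of MLPH-CKO was left out.

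PCDHGB5, a gamma B isoform, showed the widest contrast between clones. Non-target had 0.154, 0.107 and 0.0940 FPKM, which is 28 fragments over 3 wells. The 9 libraries of MLPH-CKO, MAGI2-CKO and C9orf89-CKO had 0 fragments. RHBDD2-CKO had 1.92, 3.38 and 3.50 FPKM, or 723 fragments, with well 1 below the other wells. No group overlapped another, apart from the 3 clones at 0. The mean in RHBDD2-CKO was 24.8 times that of Non-target, and on the log2(FPKM + 0.1) scale PCDHGB5 rose by 3.76 (SE 0.35, limma adjusted p = 5.44e-06). It passed the filter through RHBDD2-CKO alone, so the p-values of this rise in the filtered fit are a description. The fit without the filter also called PCDHGB5 higher there. With a floor of 3 fragments over the 3 wells of a group, its level in RHBDD2-CKO was at least 243-fold higher than in C9orf89-CKO, 277-fold higher than in MAGI2-CKO and 263-fold higher than in MLPH-CKO, and Non-target was at least 9.78-fold, 11.1-fold and 10.6-fold higher than these clones. The falls against Non-target passed the test (limma adjusted p = 0.0320, 0.0239 and 0.0284), but each was lost when certain single wells were left out. The fall in C9orf89-CKO was lost without any 1 well of Non-target or of C9orf89-CKO (adjusted p up to 0.0840), that in MAGI2-CKO without well 1 of Non-target or well 2 or 3 of MAGI2-CKO (up to 0.0697), and that in MLPH-CKO without well 1 or 2 of Non-target or any well of MLPH-CKO (up to 0.0809). Leaving out well 2 or 3 of RHBDD2-CKO also lost all 3. With wells 1 left out of every group PCDHGB5 fell by 1.00 in place of 1.12 and the adjusted p was 0.0950, 0.0829 and 0.0876, while the fit without the filter on low values kept the calls without wells 1 (0.00419, 0.00258 and 0.00328). With a pseudocount of 1 the adjusted p rose to at most 0.405, and limma's voom on the recovered fragments called all 3 falls (adjusted p = 0.00391, 0.00177 and 0.00274). The rise in RHBDD2-CKO without wells 1 was 4.14 with an adjusted p of 2.35e-04. The 0 fragments of PCDHGB5 stood beside 230 to 410 fragments of PCDHGC3 in the same 3 clones, a gene that ends in the same constant exons. Of the 50-base words in PCDHGB5 transcripts, 44.7% occur in no other member and 10.6% are shared with PCDHGB4, which had 20 fragments in RHBDD2-CKO.

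PCDHB2, the beta gene with the highest mean FPKM in every group but C9orf89-CKO, followed PCDHGB5 in RHBDD2-CKO and not in MAGI2-CKO or MLPH-CKO. In C9orf89-CKO PCDHB15 had the highest mean of the beta genes. PCDHB2 was at 0.166, 0.188 and 0.166 FPKM in Non-target, at 0.0147, 0.0269 and 0.0291 FPKM in C9orf89-CKO and at 1.05, 1.22 and 1.25 FPKM in RHBDD2-CKO. MAGI2-CKO had 0.162, 0.375 and 0.211 FPKM and MLPH-CKO 0.173, 0.180 and 0.145 FPKM, both overlapping Non-target. The RHBDD2-CKO wells lay above and the C9orf89-CKO wells below all others. PCDHB2 rose by 2.22 in RHBDD2-CKO (SE 0.27, limma adjusted p = 5.53e-05), or to 6.78 times the mean of Non-target, and fell by 1.15 in C9orf89-CKO (SE 0.27, adjusted p = 0.00797), where 5 fragments were counted over 3 wells against 35 in Non-target. It passed the filter through RHBDD2-CKO alone, so the p-value of the rise is a description. The fit without the filter also called PCDHB2 higher in RHBDD2-CKO. The fall was lost with a pseudocount of 1 and with only the 6 libraries of both groups, where the adjusted p reached 0.0858.

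**Figure D2:**
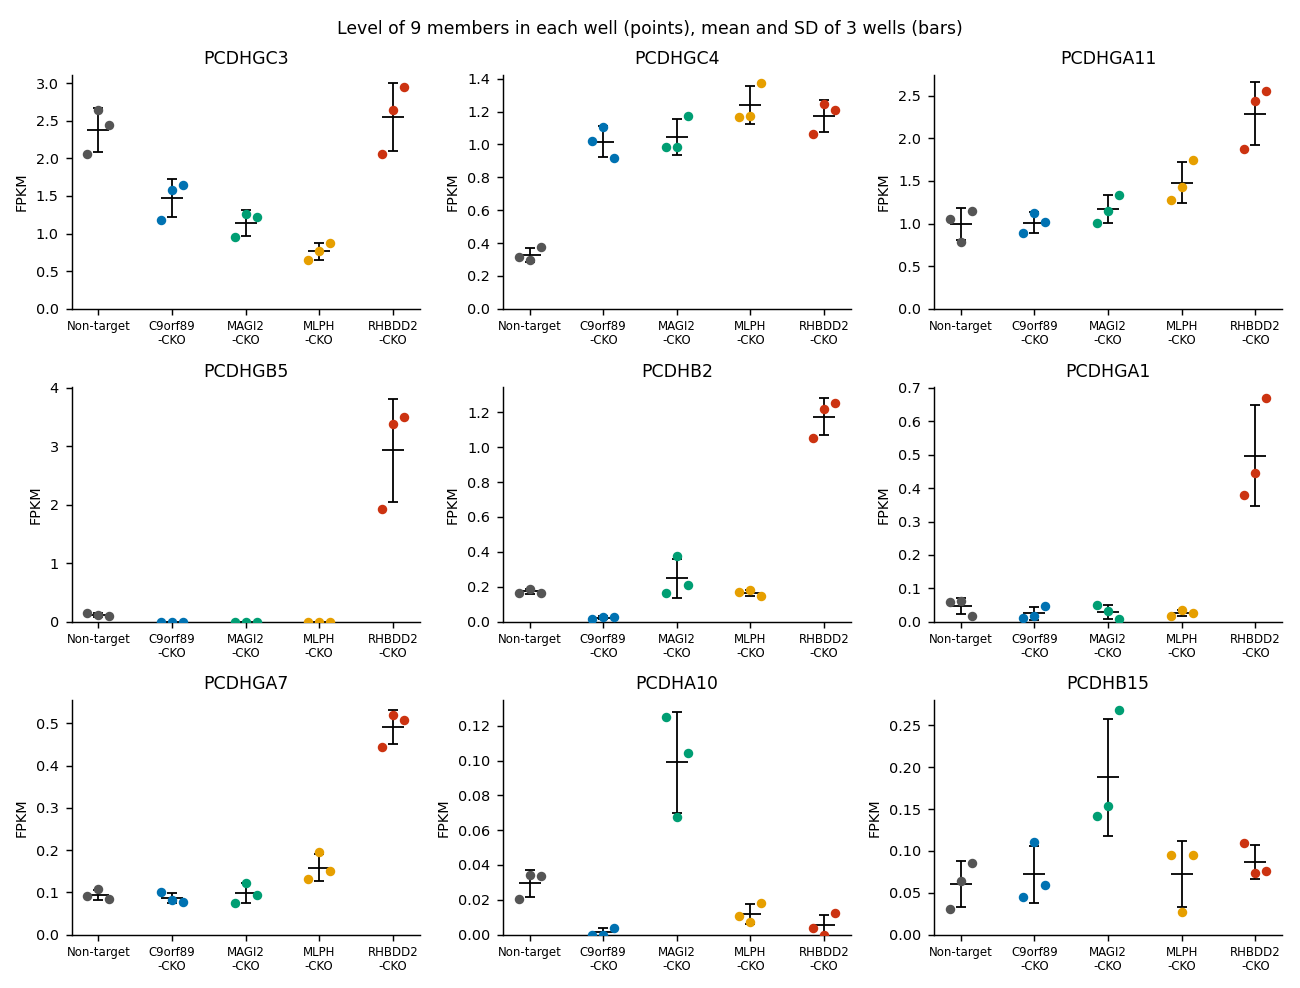
FPKM (vertical axes, from 0) of 9 members in each well (points) of the 5 groups, with the mean and SD of 3 wells (bars). PCDHGC4 is low in Non-target only, PCDHGC3 steps down to MLPH-CKO, PCDHGB5, PCDHB2, PCDHGA1 and PCDHGA7 are highest in RHBDD2-CKO, and PCDHA10 and PCDHB15 are highest in MAGI2-CKO.

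Counted over the 5 tested members, 1 was higher and 3 were lower in C9orf89-CKO than in Non-target, where 26.0% of the 16175 genes tested passed (12.9% higher, 13.1% lower). In MAGI2-CKO 1 was higher and 2 were lower, with 36.1% of all genes passing (17.0% higher, 19.1% lower), and in MLPH-CKO 2 were higher and 2 lower, with 30.1% passing (14.5% higher, 15.5% lower). In RHBDD2-CKO 4 were higher and none was lower, with 34.1% passing (17.4% higher, 16.7% lower), a count that PCDHB2 and PCDHGB5 enter through their level in that clone. PCDHGC4, 1 of the higher members in each of the 4 clones, entered through its level in these clones, so the counts of higher members are a description. Leaving out wells 1 gave 3, 2, 3 and 4 calls in the 4 comparisons. All 5 passed the moderated F test for any difference among the groups, as did 61.0% of all genes. PCDHB2, PCDHGB5 and PCDHGC4 reached the filter only through groups in which they were high, so this count too is a description. Between clones, MAGI2-CKO against C9orf89-CKO called 1 of 5 (22.5% of all genes), MLPH-CKO against C9orf89-CKO 2 (14.2%), MLPH-CKO against MAGI2-CKO 1 (21.2%), and RHBDD2-CKO called 4 against C9orf89-CKO (29.3%), 4 against MAGI2-CKO (41.6%) and 4 against MLPH-CKO (37.0%). PCDHB2, PCDHGA11, PCDHGB5 and PCDHGC3 were the 4 in each of the last 3, and PCDHB2 and PCDHGB5 enter these counts too through their level in RHBDD2-CKO. Of the 5, PCDHGB5 and PCDHB2 were on in 1 group, at 0.5 FPKM or more in all 3 wells, and off in another, at 0.05 FPKM or less in all 3 wells, a pattern that 1.42% of all genes tested had. Both genes entered the tested set through the same level in RHBDD2-CKO that makes them on, so nothing is read from this count.

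The low members were compared in a fit without the filter, in which 46 of the 53 had at least 1 fragment. RHBDD2-CKO held a broad rise of beta and gamma genes: 17 of the 46 rose and none fell, against 8.3% of 32715 genes that rose and 8.08% that fell. The median log2 change of the 46 was 0.38, and that of all genes in this comparison was 0.00. The risen genes were 7 beta genes (PCDHB2, PCDHB3, PCDHB6, PCDHB11, PCDHB12, PCDHB13 and PCDHB16), 9 stochastically chosen gamma genes (PCDHGA1, PCDHGA2, PCDHGA6, PCDHGA7, PCDHGA11, PCDHGB1, PCDHGB3, PCDHGB5 and PCDHGB6) and PCDHGC4, with no alpha gene. In C9orf89-CKO 1 rose (6.12% of all genes) and 3 fell (6.2%), in MAGI2-CKO 3 rose (8.48%) and 2 fell (9.38%), and in MLPH-CKO 1 rose (6.84%) and 2 fell (7.6%). The median log2 changes of the 46 were -0.11, -0.021 and -0.026 in these clones, against 0.00 for all genes. The count in MLPH-CKO rose from 3 to 5 without well 3 of MAGI2-CKO or without well 1 or 2 of RHBDD2-CKO. Of the 46, 24 passed the F test, as did 30.7% of all genes. Between clones the same fit called 2 members in MAGI2-CKO against C9orf89-CKO (9.95% of all genes), 2 in MLPH-CKO against C9orf89-CKO (5.9%) and 1 in MLPH-CKO against MAGI2-CKO (9.25%). RHBDD2-CKO called 23 against C9orf89-CKO (13.9%), 22 against MAGI2-CKO (20.7%) and 23 against MLPH-CKO (17.8%). The count of members called in RHBDD2-CKO, in either direction, was 10 to 20 over the other settings, being 10 with only the 6 libraries of both groups and 15 without wells 1. A second test, limma's voom on the recovered fragments of genes with at least 10 over all libraries, raised 16 of 38 members (13.5% of 23326 genes) and lowered 1 (12.1%), with 15 of the risen genes shared. PCDHB6, PCDHB10, PCDHGA2 and PCDHGB6, 4 of the 16, had fewer than 10 fragments in the 12 other libraries and passed the limit through their level in RHBDD2-CKO, so the count of 16 is a description and not support for the rise. In the other clones voom called more falls than the fit without the filter. It raised 1 member (9.62% of all genes) and lowered 9 (9.73%) in C9orf89-CKO, where PCDHGC3, PCDHB2 and PCDHGB5 were joined by PCDHA10, PCDHB16, PCDHGA4, PCDHGB2, PCDHGB4 and PCDHGB6. It raised 3 (13.4%) and lowered 5 (14.5%) in MAGI2-CKO, and raised 2 (11.6%) and lowered 5 (11.4%) in MLPH-CKO. PCDHGA4, PCDHGB5, PCDHGB6 and PCDHGC3 were among the falls of all 3.

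Among these low members PCDHGA1, the first gene of the gamma cluster, and PCDHGA7 were picked after their values were seen. PCDHGA1 was at 0.0598, 0.0620 and 0.0182 FPKM in Non-target and at 0.379, 0.444 and 0.669 FPKM in RHBDD2-CKO, with no well of another clone above 0.0494 FPKM. Its mean was 10.7 times that of Non-target, and it rose by 2.01 on the log2(FPKM + 0.1) scale (limma adjusted p = 5.69e-05). PCDHGA7 was at 0.0916, 0.107 and 0.0838 FPKM in Non-target and at 0.445, 0.521 and 0.508 FPKM in RHBDD2-CKO, 5.22 times the mean of Non-target (adjusted p = 9.16e-05, limma). All RHBDD2-CKO wells of both genes lay above all other wells. PCDHGB6 had 53 fragments in RHBDD2-CKO, 7 in Non-target, 2 in MAGI2-CKO and 0 in both C9orf89-CKO and MLPH-CKO, again highest in RHBDD2-CKO and next in Non-target. By mean FPKM over all libraries, PCDHB15 and PCDHB8 came next after PCDHB2 among the beta genes, an order that differed between groups. PCDHB12 was close to PCDHB8, with means of 0.0826 and 0.0845 FPKM over all libraries. PCDHB15 had 0.0310, 0.0643 and 0.0851 FPKM in Non-target and 0.141, 0.154 and 0.268 FPKM in MAGI2-CKO, where it rose (limma adjusted p = 0.0382, at most 0.159 over the other settings), while C9orf89-CKO had 0.0452, 0.111 and 0.0598 FPKM, MLPH-CKO 0.0954, 0.0264 and 0.0950 FPKM, and RHBDD2-CKO 0.110, 0.0735 and 0.0765 FPKM. All MAGI2-CKO wells were above the wells of the other 4 groups. PCDHB8 had 0.0909, 0.0707 and 0.125 FPKM in Non-target and 0.301, 0.172 and 0.292 FPKM in RHBDD2-CKO, with no overlap and an adjusted p of 0.0515 (limma). PCDHB8 had 0, 0.0376 and 0.0935 FPKM in MAGI2-CKO, C9orf89-CKO had 0, 0 and 0.0438 FPKM, and MLPH-CKO 0.0400, 0 and 0 FPKM.

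**Figure D3:**
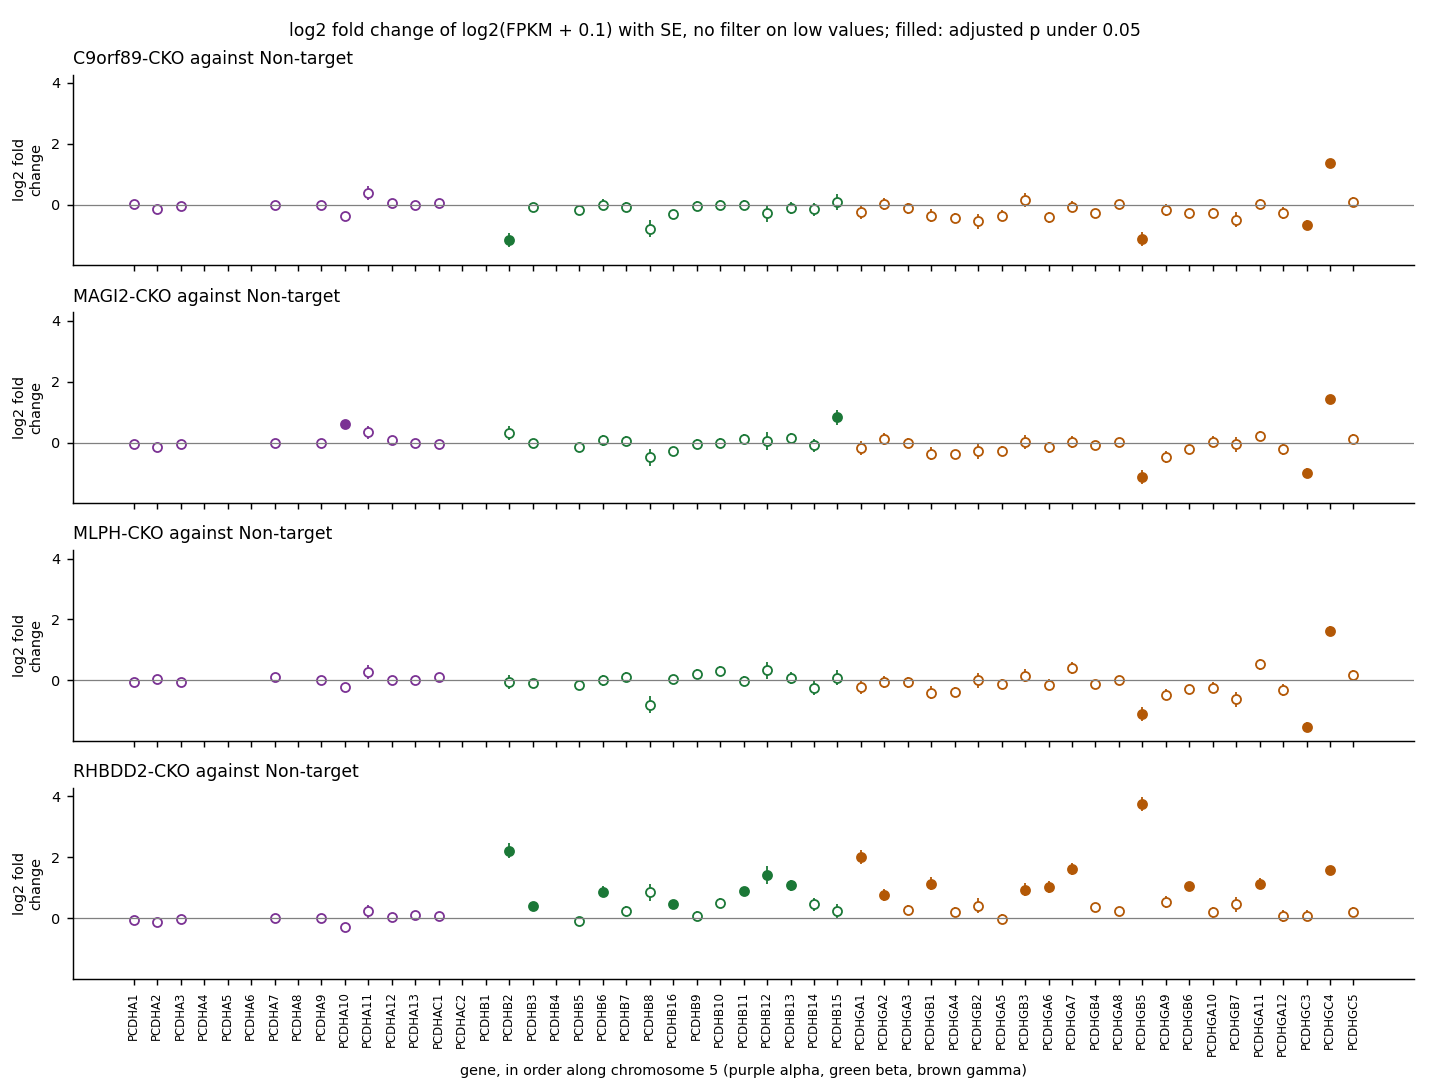
log2 fold change (vertical axes, on the log2(FPKM + 0.1) scale, with SE) of each member against Non-target in the 4 clones, in the order of the genes along chromosome 5, in the fit without the filter. Filled points have an adjusted p under 0.05, and members with no fragment have no point. In RHBDD2-CKO the filled points, 17 in all, run through the beta and gamma clusters and lie above 0, and no alpha gene is filled there.

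The alpha cluster was near silent in every group. Its 15 genes together had 34, 25, 108, 38 and 22 fragments over the 3 wells of the 5 groups, and 5 of them had none at all. PCDHA10 was at 0.0205, 0.0339 and 0.0337 FPKM in Non-target and at 0.125, 0.0677 and 0.104 FPKM in MAGI2-CKO, with 22 and 88 fragments. C9orf89-CKO had 1 fragment of it, MLPH-CKO 10 and RHBDD2-CKO 4. The MAGI2-CKO wells were above all others, and the rise against Non-target was 0.61 (SE 0.12, limma without the filter, adjusted p = 0.00350, at most 0.0783 over the other settings). The voom test also called PCDHA10 lower than in Non-target in RHBDD2-CKO (adjusted p = 0.0134) and in C9orf89-CKO (adjusted p = 0.00429), which limma on log2(FPKM + 0.1) did not (adjusted p = 0.136 and 0.0906). PCDHA11, the alpha gene with the highest mean FPKM over all libraries, was at 0, 0.0103 and 0.0272 FPKM in Non-target, at 0.00964, 0.0707 and 0.0668 FPKM in C9orf89-CKO and at 0.0410, 0.0738 and 0.0163 FPKM in MAGI2-CKO, at 0.0523, 0.00845 and 0.0521 FPKM in MLPH-CKO and at 0.0175, 0.0282 and 0.0489 FPKM in RHBDD2-CKO. All groups overlapped. PCDHA1, the first gene of the cluster, had 2 to 4 fragments in each group. Its level was 0, 0.0346 and 0 FPKM in Non-target and 0, 0.0211 and 0 FPKM in RHBDD2-CKO. C9orf89-CKO had 0, 0.0198 and 0.0214 FPKM of PCDHA1, MAGI2-CKO 0.00921, 0 and 0.00916 FPKM, and MLPH-CKO 0.00979, 0 and 0.00975 FPKM. All groups overlapped. Of the C-type alpha genes, PCDHAC1 had 0 to 4 fragments in a group and PCDHAC2 had none.

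The summed levels show the size of these shifts per cluster. The gamma cluster had 23.1, 23.9 and 25.3 fragments per 1000000 in Non-target and 48.7, 67.9 and 74.1 in RHBDD2-CKO, 2.64 times the mean. Without PCDHGB5 the ratio was 2.08. C9orf89-CKO had 20.6 ± 2.22 gamma fragments per 1000000 (SD, n = 3), MAGI2-CKO 20.7 ± 2.19 and MLPH-CKO 21.5 ± 3.05, against 24.1 ± 1.14 in Non-target. The beta cluster had 1.84, 2.22 and 1.87 fragments per 1000000 in Non-target, 9.33, 10.2 and 10.7 in RHBDD2-CKO and 0.674, 0.842 and 0.791 in C9orf89-CKO, which were 5.09 and 0.389 times the mean of Non-target with no overlap between these groups. MAGI2-CKO had 2.65 ± 0.381 and MLPH-CKO 2.02 ± 0.484 beta fragments per 1000000, beside 1.98 ± 0.209 in Non-target. The alpha sum was 0.683 ± 0.219 fragments per 1000000 in Non-target and 1.86 ± 0.402 in MAGI2-CKO, 2.73 times as high, most of it PCDHA10. The members with at least 0.5 FPKM in all 3 wells numbered 2 in Non-target (PCDHGA11 and PCDHGC3), 3 in each of the next 3 clones (the same with PCDHGC4) and 5 in RHBDD2-CKO (with PCDHGB5 and PCDHB2 in addition). At the other end, 26, 38, 31, 29 and 17 of the 53 members had 3 fragments or fewer over the 3 wells of the 5 groups, which held 49653543, 50568198, 57887323, 54756751 and 49735736 fragments in all.

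**Figure D4:**
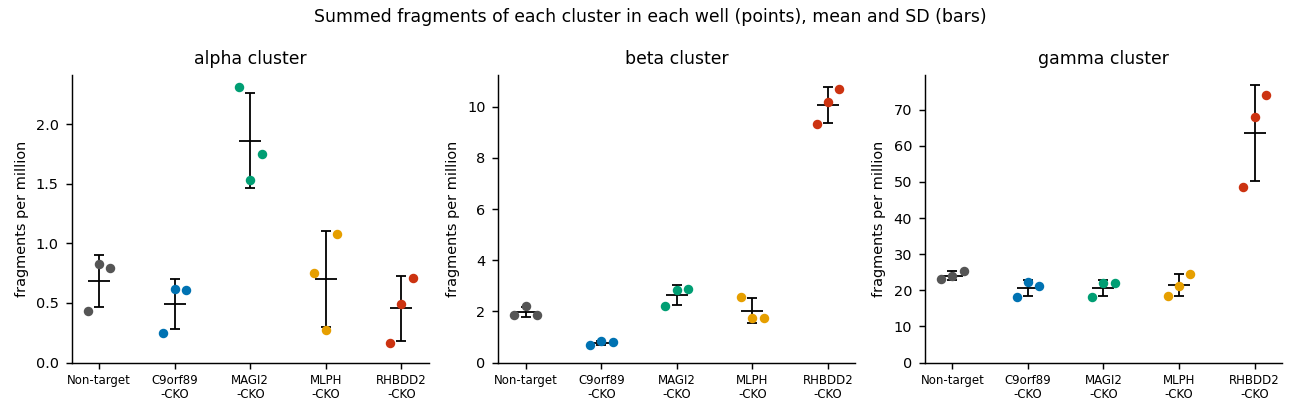
Summed fragments per 1000000 assigned fragments (vertical axes, from 0) of the alpha, beta and gamma clusters in each well (points), with the mean and SD of 3 wells (bars). RHBDD2-CKO is highest in the beta and gamma panels, C9orf89-CKO is lowest in the beta panel, and MAGI2-CKO is highest in the alpha panel, where the scale ends below 3 fragments per 1000000.

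The shares of single isoforms in the mixture also varied between groups. As a share of the summed FPKM of all members, PCDHGC3 made up 47.3% ± 4.24 in Non-target (SD, n = 3). The same share was 36.4% ± 2.96 in C9orf89-CKO, MAGI2-CKO had 24.9% ± 1.62, MLPH-CKO 17.1% ± 1.61 and RHBDD2-CKO 18.3% ± 0.292. PCDHGC4 made up 6.56% ± 0.703 in Non-target and 23.0% to 27.7% in the next 3 clones, and 8.55% ± 0.887 in RHBDD2-CKO, where the total was larger. PCDHGA11 had the highest share in MLPH-CKO, at 33.0% ± 2.81. In MAGI2-CKO its share of 25.5% ± 1.77 was within the SD of that of PCDHGC3, which was higher in well 2. In RHBDD2-CKO the share of PCDHGB5, 20.8% ± 3.27, was likewise within its SD of that of PCDHGC3, which was higher in well 1. The first 3 members held 86.9% ± 0.934 of the total in C9orf89-CKO and 55.7% ± 3.16 in RHBDD2-CKO. Across the 38 members with at least 10 fragments in all, the Pearson correlation of log2(FPKM + 0.1) between 2 wells of a group had a median of 0.959 (0.942 to 0.976 over 15 pairs). It was 0.925 (0.897 to 0.963) between wells of different clones among MLPH-CKO, MAGI2-CKO and C9orf89-CKO, 0.866 (0.806 to 0.904) between these and Non-target, and 0.703 (0.655 to 0.851) between RHBDD2-CKO and any other group. Of the 38, 9 had fewer than 10 fragments in the 12 libraries outside RHBDD2-CKO, which lets the choice of members bear on the last value. Over the other 29 it was 0.680 (0.630 to 0.840), and 0.965 between wells of a group. These correlations are across genes, which share library and depth and are not independent.

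Genes around the clusters were counted from their position alone, as protein-coding genes within 1 Mb. Of 38 such neighbours, 28 were tested. Against Non-target 2 rose and 1 fell in C9orf89-CKO, MAGI2-CKO had 8 higher and 4 lower, MLPH-CKO 6 and 0, and RHBDD2-CKO 5 and 3, and the medians of the log2 change were 0.06, 0.09, 0.04 and 0.02. The medians over all genes tested lay between -0.01 and 0.00 in these comparisons, and the shares of all genes that passed, given above, are the background of these counts and of those of the lists that follow. TAF7, a subunit of the general transcription factor TFIID that lies between the beta and gamma clusters at chr5:141260225-141320821, was at 44.5, 40.8 and 39.2 FPKM in Non-target and at 80.2, 69.9 and 69.2 FPKM in RHBDD2-CKO. Every RHBDD2-CKO well was above the 12 other wells, the highest of which had 48.9 FPKM. TAF7 rose by 0.81 (SE 0.08, limma adjusted p = 1.06e-05) in RHBDD2-CKO and passed in no other clone. The other neighbours with the smallest p in the F test were DIAPH1, an actin-nucleating formin just beyond the gamma cluster, NRG2, which encodes a neuregulin, and EIF4EBP3, a repressor of translation initiation. DIAPH1 had 27.6 ± 1.04 FPKM in Non-target, 20.2 ± 0.738 in MAGI2-CKO (limma adjusted p = 3.00e-05), while RHBDD2-CKO had 30.7 ± 0.389 (adjusted p = 0.0434, up to 0.133 in other settings), and it also fell in C9orf89-CKO, to 23.9 ± 0.365 FPKM (adjusted p = 0.0120, up to 0.148). NRG2 had 1.17 ± 0.135 FPKM in Non-target and 0.50 ± 0.145 in RHBDD2-CKO, where it fell by 1.10 (adjusted p = 5.40e-04, limma), and it rose in MLPH-CKO and MAGI2-CKO, to 2.09 ± 0.0787 and 1.77 ± 0.388 FPKM. EIF4EBP3 rose in all 4 clones, from 0.0575 FPKM in Non-target to 2.48 in MLPH-CKO and 0.283 in RHBDD2-CKO, the last with a limma adjusted p of 0.0415 (up to 0.447 in other settings) and all against 2 fragments in Non-target. EIF4EBP3 passed the filter on low values through wells of the other 3 clones, so its rises in those clones are a description. The counts of higher neighbours given above for those clones include EIF4EBP3 and are to that extent a description too. Of 22 non-coding genes between the members 1 was tested, the lincRNA AC005618.1 at chr5:141326210-141329357, just before PCDHGA1. It had 0.119, 0.0205 and 0.0543 FPKM in Non-target and 1.14, 0.769 and 1.19 FPKM in RHBDD2-CKO, with 10 and 167 fragments, and MLPH-CKO had 4 fragments, C9orf89-CKO 1 and MAGI2-CKO 0. AC005618.1 passed the filter on low values through RHBDD2-CKO alone, so its difference there is a description. The library kit does not mark strand, so reads of overlapping genes on opposite strands cannot be told apart. The 6 pseudogenes of the clusters stayed at or below 10 fragments in every group.

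Genes known to act on these promoters were taken from fixed lists. Of 14 genes of cohesin, CTCF and loop extrusion, all tested, 4 rose and 0 fell in C9orf89-CKO, while MAGI2-CKO had 3 higher and 1 lower, MLPH-CKO 5 and 2, and RHBDD2-CKO 4 and 2, with medians of 0.21, 0.11, 0.11 and 0.11. STAG2, a cohesin subunit, was at 42.7, 37.6 and 39.7 FPKM in Non-target and had a mean of 27.5 ± 1.67 FPKM in RHBDD2-CKO (SD, n = 3), of 85.0 ± 4.86 in C9orf89-CKO, of 83.4 ± 5.74 in MAGI2-CKO and of 75.7 ± 1.71 in MLPH-CKO. The wells of RHBDD2-CKO were the lowest, those of Non-target came next, and those of the other 3 clones were highest, with no overlap between these levels. STAG2 rose by 1.09, 1.06 and 0.92 and fell by 0.54 in RHBDD2-CKO (limma adjusted p = 9.60e-05). Its paralogue STAG1 had 6.83 ± 0.450 FPKM in Non-target, 9.32 ± 0.698 in C9orf89-CKO (limma adjusted p = 9.77e-04), while RHBDD2-CKO had 5.50 ± 0.170 (adjusted p = 0.00745). WAPL, which releases cohesin from DNA, rose in all 4 clones by 0.28 to 0.47 (adjusted p in RHBDD2-CKO 0.00721, limma, and up to 0.0599 in other settings), and PDS5A, a cohesin regulator, rose in RHBDD2-CKO by 0.36 (limma adjusted p = 0.00137). CTCF itself had 10.9 FPKM in Non-target and at most 11.8 FPKM in the mean of a clone and passed in none of the 4 comparisons. CTCF was named after its values were seen.

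Of 24 chromatin and DNA methylation regulators, all tested, 4 rose and 2 fell in C9orf89-CKO, while MAGI2-CKO had 4 higher and 3 lower, MLPH-CKO 2 and 5, and RHBDD2-CKO 6 and 3, with medians between -0.06 and 0.03. UHRF1, which recruits the maintenance DNA methyltransferase to replicated DNA, had 54.2 ± 3.71 FPKM in Non-target and 50.3 ± 1.46 FPKM in MAGI2-CKO. It fell to 45.1 ± 1.63 FPKM in C9orf89-CKO (limma adjusted p = 0.00661), to 38.0 ± 1.71 FPKM in MLPH-CKO (adjusted p = 5.10e-05) and to 36.7 ± 1.43 FPKM in RHBDD2-CKO (adjusted p = 2.07e-05). KDM1A, a histone demethylase, rose in all 4 clones by 0.38 to 0.53. RCOR1, its corepressor partner, had 8.74 FPKM in Non-target and 11.6 FPKM in both RHBDD2-CKO and MAGI2-CKO, where it rose. TET2, which oxidizes methylated cytosine, had 1.40 ± 0.200 FPKM in Non-target, 0.878 ± 0.0427 in MLPH-CKO and 1.86 ± 0.111 in RHBDD2-CKO, with a fall and a rise. DNMT1, the maintenance methyltransferase, fell in RHBDD2-CKO from 40.4 to 31.4 FPKM (limma adjusted p = 0.00534). DNMT1 was named after its values were seen. The part of these genes in the levels of the clusters was not tested.

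The non-clustered protocadherins, encoded at single loci elsewhere, did not form 1 pattern. Of 12, 7 were tested, and 1 rose and 1 fell in C9orf89-CKO, while MAGI2-CKO and MLPH-CKO each had 1 higher and 3 lower, and RHBDD2-CKO 3 and 1, with medians of 0.09, -0.23, -0.25 and 0.07. PCDH10 had 7.98 ± 0.270 FPKM in Non-target. It rose to 10.1 ± 0.419 FPKM in C9orf89-CKO and 11.6 ± 0.415 FPKM in RHBDD2-CKO and fell to 4.76 ± 0.259 FPKM in MAGI2-CKO and 6.52 ± 0.649 FPKM in MLPH-CKO, each past the test. PCDH17 rose in RHBDD2-CKO, from 1.29 to 2.28 FPKM (limma adjusted p = 2.49e-04), and PCDH7 rose there by 0.28 and fell in MAGI2-CKO by 0.62. PCDH9 fell in all 4 clones, from 3.58 FPKM to 2.02 to 2.67 FPKM. Of the clustered members, PCDHGC3, PCDHGA11, PCDHGC4 and, in RHBDD2-CKO, PCDHGB5 and PCDHB2 exceeded 1 FPKM in a well.

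Of 24 genes that cleave, sort or signal from protocadherins, all tested, 4 rose and 5 fell in C9orf89-CKO, while MAGI2-CKO had 6 higher and 7 lower, MLPH-CKO 5 and 2, and RHBDD2-CKO 5 and 6, with medians between -0.09 and 0.04. APH1B, a gamma-secretase subunit, rose in all clones but RHBDD2-CKO, from 1.45 ± 0.164 FPKM to 4.12 ± 0.344 in MLPH-CKO. MARCKS, a membrane-bound actin regulator, fell in all 4 clones, from 93.0 ± 3.40 FPKM to 42.7 ± 1.89 in MLPH-CKO and 42.9 ± 3.74 in RHBDD2-CKO. VPS35, a retromer subunit of endosomal sorting, fell in MAGI2-CKO from 17.9 ± 0.0937 to 11.5 ± 0.616 FPKM, and SNX27, its cargo adaptor, rose in RHBDD2-CKO from 3.97 ± 0.241 to 6.20 ± 0.185 FPKM. Of 14 neural markers 5 were tested, and 2, 2, 2 and 1 rose and 1, 2, 1 and 4 fell in the 4 clones in the order above. The neurofilament genes NEFL, NEFM and INA were low in RHBDD2-CKO, the clone with the most clustered protocadherin RNA. NEFL had 16.8 to 20.5 FPKM in Non-target and 0.903 to 1.14 FPKM in RHBDD2-CKO, INA 13.4 to 15.3 and 4.12 to 4.97 FPKM, and NEFM 21.4 to 38.4 and 0.957 to 1.89 FPKM, with no overlap in any of them. NEFM was also near 0 in MAGI2-CKO, at 0.0274 FPKM. ENO2, a glycolytic enzyme of neurons, rose in all 4 clones, from 3.31 FPKM to between 5.08 and 9.14 FPKM. Of 11 tested HEK293T markers, 2, 3, 6 and 2 rose and 2, 3, 0 and 4 fell in the same order of clones. The summed level of all 12 HEK293T markers was 148 ± 1.98 FPKM in Non-target, 199 ± 3.33 in MLPH-CKO and 126 ± 4.90 in RHBDD2-CKO. Among the markers, KRT8, an epithelial keratin, had 5.09 FPKM in Non-target and 15.3 in MLPH-CKO, LHX1, a kidney transcription factor, 1.00 and 0.452 in RHBDD2-CKO, and EPCAM, an epithelial adhesion molecule listed with the pancreatic carcinoma markers, 0.568 and 2.60 in MLPH-CKO.

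**Figure D5:**
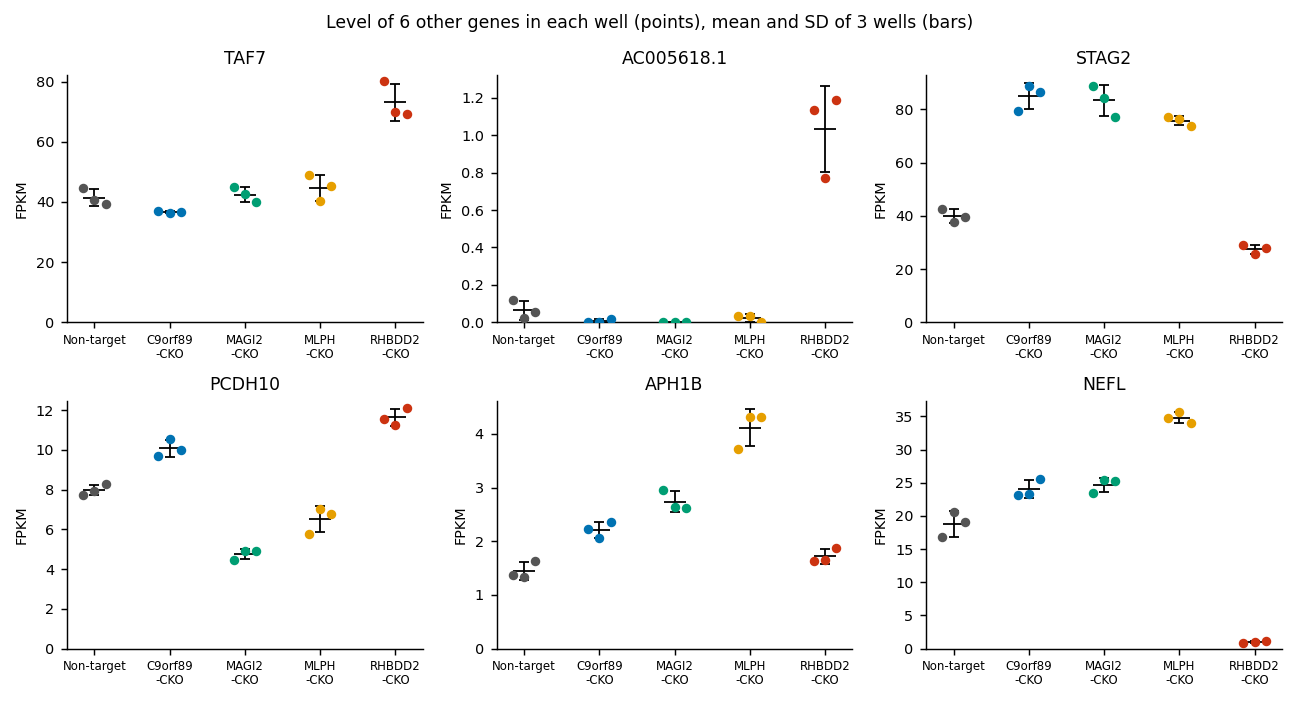
FPKM (vertical axes, from 0) of TAF7, AC005618.1, STAG2, PCDH10, APH1B and NEFL in each well (points), with the mean and SD of 3 wells (bars). TAF7 and AC005618.1 are highest and STAG2 and NEFL lowest in RHBDD2-CKO, while APH1B is highest in MLPH-CKO.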

How the data were processed

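RNA of 15 wells, 3 for each of 5 HEK293T clones, had been made into libraries with a kit that does not mark strand. The authors deposited 1 table of values per library, whose unit was not given in the sources used here. From the values, the deposited numbers were read as FPKM. HISAT2 2.0.5, featureCounts 1.5.0-p3 and DESeq2 are named in the submitters' processing notes, with no roles, and the genome build and annotation were not given in the sources used here. The gene identifiers and exon lengths match GENCODE v29 (GRCh38). In each library, FPKM times exon length came in whole steps of 1 size, for 100% of values up to 1000 fragments (tolerance 0.02), which gave the recovered fragments, and showed that the authors had scaled the libraries. The depth was 15517856 to 19489918 fragments (median 17666063), and floors cover counting error only.

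Differences were tested with limma 3.58.1 (R 4.3.3; Python 3.11.15, numpy 2.4.6, pandas 2.3.3 and matplotlib 3.10.9 for the rest) on log2(FPKM + 0.1), with an intensity trend, all 15 libraries and genes at 0.5 FPKM or more in at least 3 of them, and Benjamini-Hochberg adjustment over 16175 genes with a threshold of 0.05. Fold changes on this scale understate those of low genes. Low members were tested without the filter, over 32715 genes. On simulated data for RHBDD2-CKO against Non-target with 16175 genes, 179 of 200 genes changed by 2 on the log2 scale were recovered and 7 unchanged genes were called. Alternatives were another pseudocount, other filters, quantile normalization, no trend, a replicate block, only the 6 libraries compared, leaving out each well, and voom on recovered fragments, of which the limit of 10 fragments was chosen after seeing the data.

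The members and lists were chosen with earlier results of these data known. Values in every well were given for the 3 members of each cluster with the highest mean FPKM and for the 2 largest rises and 2 largest falls in each clone, the C-type members were always named, and up to 4 genes per list were named by the smallest p of the F test. PCDHGA1, PCDHGA7 and PCDHGB6, the promoter motif and its window were chosen after values or sequences were seen.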

Additional observations from a re-analysis of the deposited data

Results flagged for a closer look

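PCDHB2 was lower than Non-target in every well of C9orf89-CKO and higher in every well of RHBDD2-CKO. The difference between the clones was 3.36 on the log2(FPKM + 0.1) scale (SE 0.27, limma adjusted p = 1.59e-06). PCDHB2 passed the filter through RHBDD2-CKO alone, so this p-value is a description. The fit without the filter also called the difference.

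PCDHGB5 was at 0 in every well of MLPH-CKO, MAGI2-CKO and C9orf89-CKO, below Non-target, and above Non-target in every well of RHBDD2-CKO. RHBDD2-CKO differed from each of these clones by 4.88 on the log2(FPKM + 0.1) scale (SE 0.35), with limma adjusted p of 4.95e-07 against C9orf89-CKO, 3.05e-07 against MAGI2-CKO and 4.41e-07 against MLPH-CKO. These values depend on the pseudocount, since 1 side is at 0. PCDHGB5 passed the filter through RHBDD2-CKO alone, so these p-values are a description. The fit without the filter also called each of these differences.

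The lincRNA AC005618.1, outside the protein-coding members, had a mean of 1.03 FPKM in RHBDD2-CKO against 0.0645 FPKM in Non-target. It passed the filter through RHBDD2-CKO alone, so these values are a description.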

How the results depend on the processing

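No value that passed the test changed direction under another setting. Without the filter on low values the count of members called rose from 3 to 5 in MAGI2-CKO, from 4 to 17 in RHBDD2-CKO and from 5 to 24 in the F test, and between clones to 2 in MAGI2-CKO against C9orf89-CKO, and to 23, 22 and 23 in RHBDD2-CKO against C9orf89-CKO, MAGI2-CKO and MLPH-CKO, since 46 members entered in place of 5. In C9orf89-CKO the count fell from 4 to 2 with a mean of at least 0.5 FPKM, with a pseudocount of 1 and with only 6 libraries. For MLPH-CKO against C9orf89-CKO it fell from 2 to 1 with these 3 settings, with quantile normalization and without wells 1, and for MLPH-CKO against MAGI2-CKO from 1 to 0 with a pseudocount of 1, quantile normalization, only 6 libraries and voom. The mean filter, which removes PCDHB2, left 0 calls in MAGI2-CKO against C9orf89-CKO. The count without the filter in RHBDD2-CKO fell from 17 to 10 with only 6 libraries. With voom on genes with at least 10 fragments it rose from 4 to 10 in C9orf89-CKO, from 5 to 8 in MAGI2-CKO and from 3 to 7 in MLPH-CKO, and voom on all recovered fragments gave 12, 9 and 7. Quantile normalization gave 7 in both C9orf89-CKO and MLPH-CKO, a pseudocount of 0.01 gave 7 in C9orf89-CKO and 3 in MAGI2-CKO, and limma without the trend gave 5 in MLPH-CKO, where leaving out 1 well gave 3 to 5. Leaving out 1 well gave 2 to 4 calls in both C9orf89-CKO and MLPH-CKO, 1 to 2 in MLPH-CKO against C9orf89-CKO and 0 to 1 in MLPH-CKO against MAGI2-CKO. The loss to 2 in C9orf89-CKO came without well 2 of Non-target or well 1 of C9orf89-CKO, and that in MLPH-CKO without well 1 or 2 of Non-target or well 2 or 3 of MLPH-CKO. With members called on at 1 FPKM, Non-target, C9orf89-CKO and MAGI2-CKO each had 1. Apart from settings named here, the cause of a change was not tested.

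Wells share only a number. Deviations of same-numbered wells correlated with a median r of 0.0856 over 30 pairs, 12 of which exceeded 0.1. For wells of different numbers the median was -0.0887 over 60 pairs, 2 of which exceeded 0.1. Of 15 libraries, 12 were nearest their own number, a hint from the data and not the design. With the replicate block the count in MAGI2-CKO against C9orf89-CKO was 2 in place of 1, with PCDHGC3 at -0.33 (adjusted p = 0.0160, limma). The sets of single-gene values without the summaries held 4443 that kept their call, 174 that lost it, 36 that gained it and 14 that moved.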
